A study of Mus musculus with 7 samples.

Results

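The genes described here form the core of the canonical Wnt pathway inside the cell: the scaffolds Apc and Axin1, the kinases Csnk1a1, Gsk3a and Gsk3b, their substrate Ctnnb1 (beta-catenin), and the transcription factors Tcf7, Tcf7l1, Tcf7l2 and Lef1. They were found on the arrays as every probe set that the platform annotation pairs with exactly 1 gene symbol equal to one of these 10 names. That gave 25 probe sets for 9 genes, of 17097 genes measured in all. No row of the annotation table names Tcf7, alone or beside another symbol, so its level was not analysed here. Gsk3a and Lef1 had 1 probe set each, and the other 7 genes had between 2 and 4.

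Expression was measured on 7 Affymetrix arrays of tumour cells from the mouse colon. The 3 KO arrays came from animals with the alleles Mex3a tom/flox, in which tamoxifen removes the floxed copy of Mex3a, and the 4 WT arrays from Tom/+ animals, which keep 1 unmodified copy beside the reporter; the labels call the arrays only KO or WT, and these genotypes are read from the design text. Tomato reports activity of the Mex3a promoter, so the sorted cells are the Mex3a-expressing ones of the tumour. Mex3a encodes an RNA-binding protein of intestinal stem and progenitor cells. All animals, WT included, also carried Villin CreERT2, a Cre recombinase that the Villin promoter drives in the gut epithelium, and the genotype APC fl/+, so that 1 of the Apc alleles could be deleted in that tissue. All were given 4 doses of tamoxifen and then drinking water with 2% DSS, which injures the colon lining, for 5 days, and colon adenomas were taken 2 months after DSS ended. Each sample was RNA from 2000 cells sorted for Tomato and for Epcam, a protein on the surface of epithelial cells, amplified over 24 cycles. Age and sex are not used here, and the labels do not state whether each array stands for its own animal. The p-values therefore describe spread among these arrays, part or all of which may be technical.

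In resting cells the scaffolds Apc and Axin1 hold beta-catenin beside casein kinase 1 alpha and glycogen synthase kinase 3, which phosphorylate it and so mark it for destruction. When the complex is lost, as in most colon tumours, beta-catenin accumulates and binds the TCF/LEF proteins on DNA, and target genes of crypt stem cells are switched on. Much of this control acts on proteins, which an array does not measure. The levels below are log2 mRNA levels from RMA (robust multi-array average), which the authors applied, and a difference of 1 means a doubling. The level of one probe set cannot be set against that of another, because probes differ in brightness.

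The arrays were alike in their medians, between 5.96 and 6.00 on the log2 scale. Scan batch 1 held 1 KO and 2 WT arrays, and scan batch 2 held 2 of each. Mex3a itself was lower in KO, at 6.18, 6.29 and 6.07 in KO replicates 1 to 3 against 7.41, 7.38, 7.50 and 7.01 in WT replicates 1 to 4 on the brighter of its 2 probe sets. That difference of -1.13 (SE 0.13; limma adjusted p = 0.334), or 2.19-fold, had no overlap but did not pass the threshold, and the other set of Mex3a differed by -0.60 (SE 0.15; adjusted p = 0.483). Epcam, the protein used for sorting, stood between 11.9 and 12.0 on every array, which does not show whether other cells were present. The mean log2 level of 12 fibroblast and muscle markers was 6.77 in KO replicate 2 and 6.75 in WT replicate 3. On the other arrays it was 6.27 to 6.38. The part of such cells in the values below was not tested. Markers of T and innate lymphoid cells, listed because such cells express TCF/LEF genes strongly, had a mean log2 level of 5.99 to 6.01 over 16 genes in KO and of 5.90 to 6.06 in WT. The summed linear level of 13 markers of other leukocytes was 6250 to 6670 in KO and 3950 to 5800 in WT. Most of that sum was Lyz2, at 12.4, 12.5 and 12.4 in KO and 11.6, 12.3, 12.3 and 11.9 in WT, while the pan-leukocyte gene Ptprc lay between 4.07 and 4.25 in KO and between 4.02 and 4.11 in WT, among the 25% of genes of lowest mean level. Of the 13 markers 9 were nonetheless lower in KO, beside 10148 of all 17097 genes. Jchain, of plasma cells, read 7.42 in KO replicate 1, 4.01 and 4.11 in KO replicates 2 and 3 and 4.14 to 4.21 in WT. In sorted pools like these, fewer cells of a type and less RNA per cell cannot be told apart.

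KO was compared with WT to ask whether loss of Mex3a goes with a change in the beta-catenin machinery of tumour cells in which 1 Apc allele was floxed. Of the 25 probe sets, 0 passed an adjusted p of 0.05 in limma, with scan batch in the fit and adjustment over all 45037 probe sets. Over all of those the number was also 0, which is 0% called. The adjusted p of the 25 probe sets ran from 0.486 to 0.960. In size the differences were small: the largest was 0.35 (Lef1, lower in KO), 12 of the 25 were under 0.1, and the median size was 0.111, beside 0.0689 over all probe sets. With sign, the median of KO minus WT was -0.030 over the 25 and -0.018 over all. Differences were negative for 14 probe sets (56.0%) and positive for 11, and 58.1% of all probe sets were negative.

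At an unadjusted p under 0.05 there were 5 of the 25 probe sets, 2 higher and 3 lower in KO, against 4231 of all probe sets (9.39%, with 5.58% higher and 3.81% lower in KO). Those 5 were Lef1, Ctnnb1 on 2 probe sets that went opposite ways, the brightest set of Csnk1a1 and the brightest set of Tcf7l2. The number changed with the setting, and so did the number over all 45037 probe sets. It was 10 with array weights, where 10866 of all passed, and 7 within scan batch 2, where 8699 did. Without WT replicate 2 it was 7 (6111 of all), and without KO replicate 1 it was 7 (7589). Without KO replicate 3 it was 3 (2273), without KO replicate 2 it was 2 (2311) and without WT replicate 1 it was 2 (3968). Without WT replicate 3 it was 1 (2692). Without scan batch in the fit it was 3 (2636). The number within scan batch 1, with its 1 KO array, is not given. Leaving out KO replicate 1 leaves no KO array in scan batch 1, so the differences then equal those within scan batch 2. The KO and WT arrays did not overlap on 3 of the 25 (12.0%), against 4.96% of all probe sets (2.16% higher and 2.8% lower in KO). Of those 3, Lef1 and 1 set of Ctnnb1 were lower in KO and 1 set of Csnk1a1 was higher. With so few probe sets, and several of them reading the same gene, these counts describe the list and support nothing particular to it. The 95% intervals of the 25 differences, each taken alone, lay within -0.62 and 0.69.

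**Figure D1:**
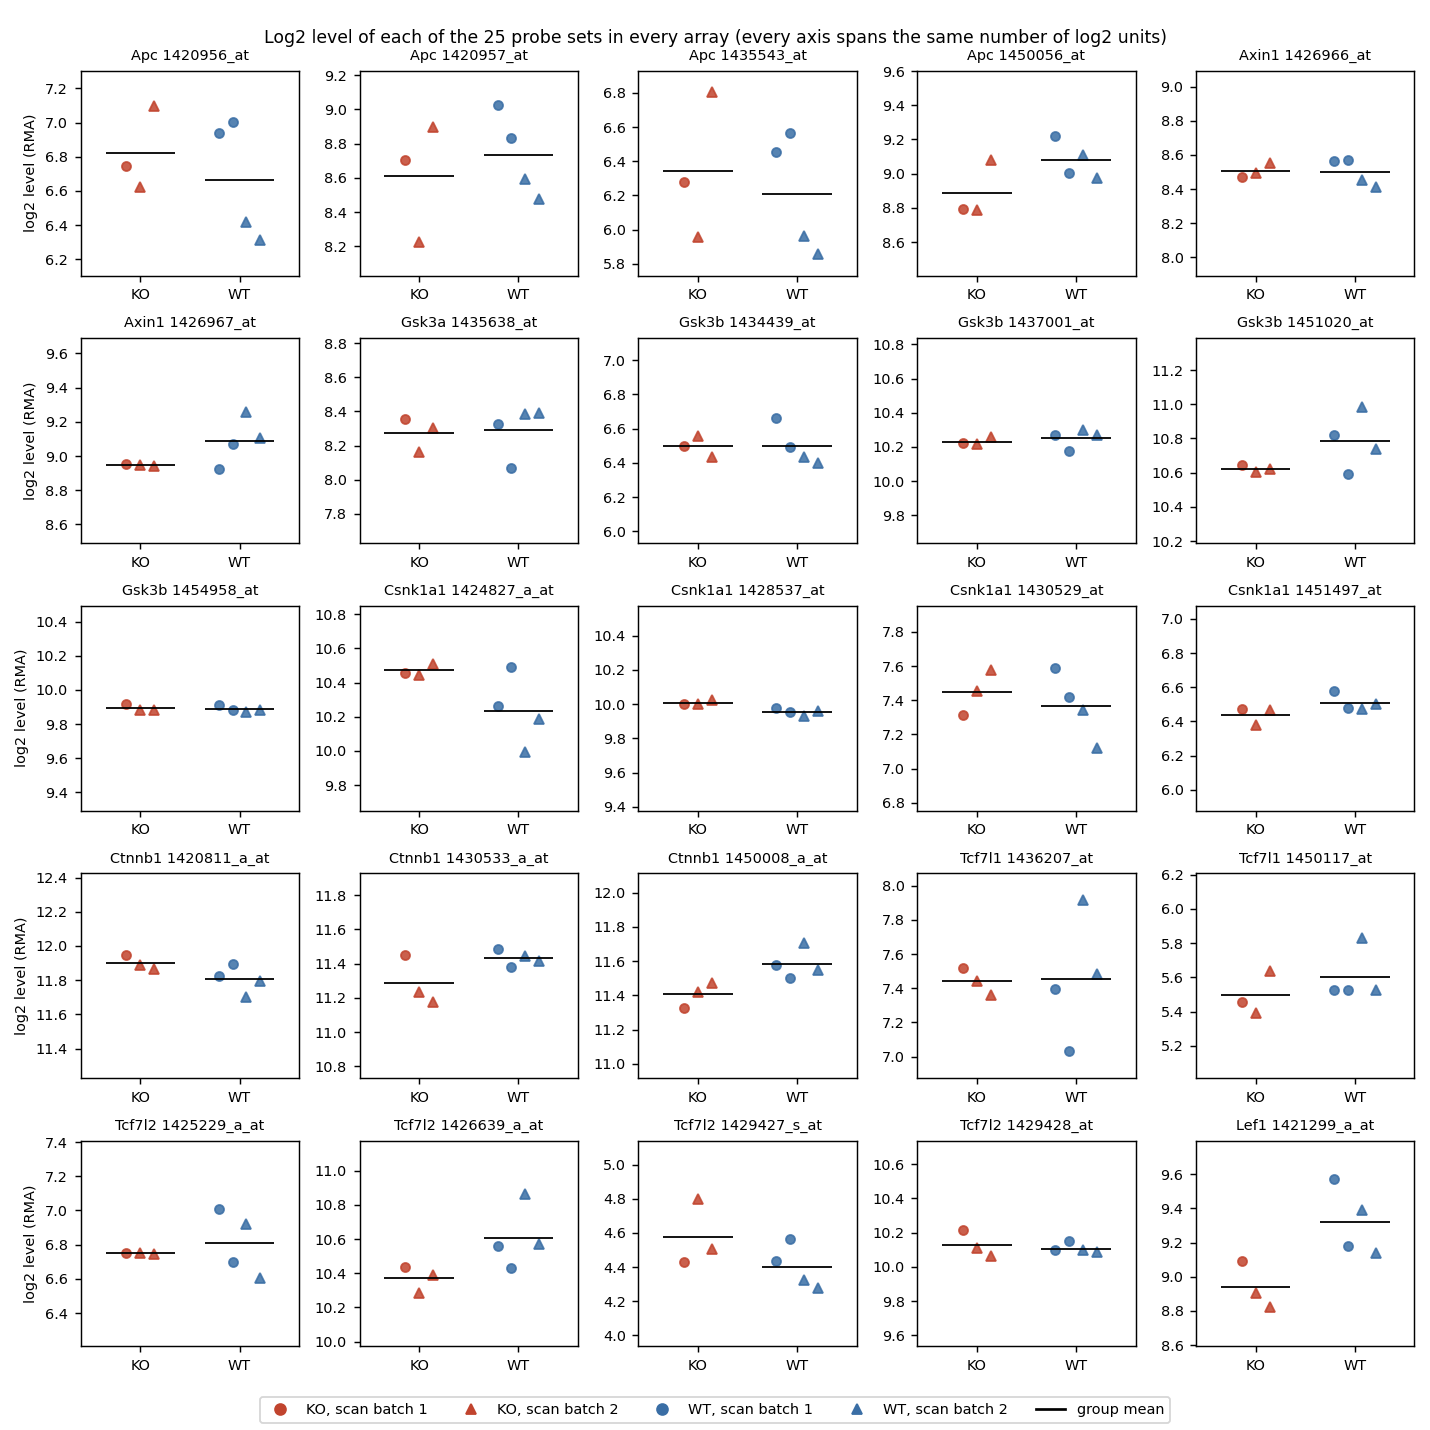
Log2 level (RMA) of each of the 25 probe sets on every array, 1 panel per probe set, KO left of WT; circles are scan batch 1, triangles scan batch 2, the line is the group mean, and the letters PM are left out of the probe set names. Each vertical axis spans the same number of log2 units, so that the small spread of Gsk3b 1454958_PM_at, 0.046 from lowest to highest array, can be set against the wide spread of Apc 1435543_PM_at, 0.949.

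Apc, the large scaffold that organises the complex and the tumour suppressor floxed on 1 allele in all of these animals, showed no difference between KO and WT beyond the spread of the arrays. Its brightest probe set, 1450056_PM_at, read 8.79, 8.79 and 9.08 in KO replicates 1 to 3 and 9.22, 9.00, 9.11 and 8.97 in WT replicates 1 to 4. KO replicates 1 and 2 lay below every WT array and KO replicate 3 inside the WT range. The difference was -0.19 (SE 0.11, 95% interval -0.45 to 0.061; limma adjusted p = 0.607). It was negative within both scan batches, at -0.32 in batch 1 and -0.11 in batch 2, which is also its value without KO replicate 1.

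The other sets of Apc did not all go the same way. Probe set 1420956_PM_at read 6.75, 6.62 and 7.10 in KO and 6.94, 7.00, 6.42 and 6.31 in WT. Probe set 1435543_PM_at read 6.28, 5.95 and 6.80 in KO and 6.46, 6.57, 5.97 and 5.86 in WT. In both, WT replicates 1 and 2 of scan batch 1 stood above WT replicates 3 and 4 of scan batch 2, and KO replicate 3 stood highest of all arrays. Their differences were 0.21 (SE 0.17) and 0.19 (SE 0.22) over all arrays, but -0.22 and -0.23 within scan batch 1 and 0.50 and 0.47 within scan batch 2. For 1420956_PM_at the difference was 0.017 when KO replicate 3 was left out and 0.11 when WT replicate 4 was. Without KO replicate 1 it was 0.50, the same value as within scan batch 2. The fourth set, 1420957_PM_at, read 8.70, 8.23 and 8.90 in KO and 9.03, 8.83, 8.59 and 8.48 in WT, a difference of -0.077 (SE 0.16).

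These 3 sets followed one another across the 7 arrays, with Pearson's r between 0.723 and 0.961. The brightest set followed 1420957_PM_at, with r = 0.693, and the other sets less, with r = 0.252 and 0.371. The correlations describe only these 7 arrays, which share their processing and their scan batches. The residual spread of 3 of the 4 sets was wide, with an SD of 0.263 to 0.378, above that of at least 94.6% of all probe sets. Their levels were lower by 0.29 to 0.32 in scan batch 2 than in scan batch 1 in the same fit (limma, adjusted p from 0.479 to 0.557), while the brightest set differed by 0.016 between batches. Which exons the sets read, and whether any of them falls in the floxed part of Apc, is not stated in the labels or tables used here, so these values do not say how much of the Apc mRNA came from a recombined allele.

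The genes most like the brightest set of Apc across the 7 arrays were Syt12 (r = 0.981), Sp6 (r = 0.979) and Ercc3 (r = 0.972), the highest of 12821 correlations. For the brightest set of Ctnnb1 they were Atp6v1b2 (r = 0.993), Macir (r = 0.988) and Ccdc50 (r = 0.987). Over 7 arrays such values describe a shared order of the arrays and nothing more.

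Axin1, the scaffold that brings the kinases and beta-catenin together, was measured by a pair of probe sets that did not follow each other (r = -0.530 over 7 arrays). On the brighter one, 1426967_PM_at, the KO arrays were nearly equal, at 8.95, 8.95 and 8.94, and the WT arrays ran wider, at 8.92, 9.07, 9.26 and 9.11. WT replicate 1 stood below all KO arrays and the other WT arrays above them, for a difference of -0.16 (SE 0.087; limma adjusted p = 0.596), or -0.10 without WT replicate 3. The other set, 1426966_PM_at, lay at 8.47 to 8.55 in KO and 8.42 to 8.57 in WT, with a difference of 0.016 (SE 0.081).

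The kinases came next. Csnk1a1 encodes casein kinase 1 alpha, which adds the first phosphate to beta-catenin. On its brightest probe set, 1424827_PM_a_at, KO arrays read 10.46, 10.45 and 10.51 and WT arrays 10.26, 10.49, 9.99 and 10.19. All KO arrays stood above 3 of the 4 WT arrays, and WT replicate 2 lay among them. The difference was 0.27 (SE 0.098, 95% interval 0.040 to 0.49), or 1.203-fold, with a limma adjusted p of 0.511. It was 0.39 within scan batch 2 and 0.084 within scan batch 1. Probe set 1428537_PM_at went the same way by a narrow margin, at 10.002, 9.999 and 10.022 in KO against 9.975, 9.956, 9.930 and 9.963 in WT. The groups did not overlap there, yet the difference was only 0.053 (SE 0.061; limma adjusted p = 0.788), because limma widens the error of sets with an unusually small spread. Of the remaining sets, 1430529_PM_at differed by 0.095 (SE 0.13) and 1451497_PM_at by -0.060 (SE 0.073), both with overlap between KO and WT.

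Gsk3b and Gsk3a encode the paired glycogen synthase kinases 3 that add the further phosphates. Gsk3b differed in steadiness between its 4 probe sets, and the residual SD of its brightest set was above that of 68.6% of all probe sets. Its set 1454958_PM_at lay between 9.88 and 9.92 in KO and between 9.87 and 9.91 in WT, and its residual SD of 0.012 was below that of nearly all probe sets. On that set 4 of the 7 arrays carried the same value, which RMA can produce. Set 1437001_PM_at lay between 10.21 and 10.26 in KO and 10.17 and 10.30 in WT, with a 95% interval of the difference from -0.17 to 0.11. The brightest set, 1451020_PM_at, read 10.645, 10.602 and 10.622 in KO against 10.82, 10.59, 10.98 and 10.74 in WT. WT replicate 2 stood at the KO level and the other WT arrays above it, for a difference of -0.17 (SE 0.090; limma adjusted p = 0.576), which was -0.094 without WT replicate 3. The remaining set, 1434439_PM_at, differed by 0.017 (SE 0.085).

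Gsk3a read 8.36, 8.16 and 8.30 in KO and 8.33, 8.07, 8.39 and 8.39 in WT on its only set, 1435638_PM_at. The groups overlapped throughout. The difference was -0.030 (SE 0.11), with a 95% interval from -0.28 to 0.22, and it was 0.16 within scan batch 1 and -0.16 within scan batch 2.

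Ctnnb1 encodes beta-catenin, the protein that the complex destroys and that otherwise links cadherins to the cytoskeleton or drives transcription with TCF/LEF. Its probe sets disagreed in direction. On the brightest, 1420811_PM_a_at, KO arrays read 11.95, 11.89 and 11.86 and WT arrays 11.82, 11.90, 11.70 and 11.80. KO was higher apart from WT replicate 2, which lay inside the KO range, and the difference was 0.11 (SE 0.046; limma adjusted p = 0.527). On 1450008_PM_a_at, KO arrays read 11.32, 11.42 and 11.47 and WT arrays 11.58, 11.50, 11.70 and 11.55. Here every KO array lay below every WT array, with a difference of -0.19 (SE 0.056, 95% interval -0.32 to -0.063), or 1.14-fold lower in KO, and a limma adjusted p of 0.486. This was the lowest adjusted p among the 25 probe sets.

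The third set, 1430533_PM_a_at, read 11.45, 11.23 and 11.17 in KO and 11.49, 11.38, 11.44 and 11.42 in WT. KO replicates 2 and 3, of scan batch 2, lay below all WT arrays and KO replicate 1 among them, so that the difference was -0.13 (SE 0.066) over all arrays, -0.23 within scan batch 2 and 0.014 within scan batch 1. The first pair of sets mirrored each other across the 7 arrays, with r = -0.948. The gap between them (1420811_PM_a_at minus 1450008_PM_a_at) was 0.624, 0.469 and 0.391 in KO replicates 1 to 3, against 0.242, 0.398, -0.00057 and 0.251 in WT replicates 1 to 4. It averaged 0.494 ± 0.12 in KO and 0.222 ± 0.16 in WT (SD, n = 3 and n = 4), with an overlap of KO replicate 3 and WT replicate 2. A two-sided exact permutation test of that gap, chosen after the values were seen, gave p = 0.0857 over 35 splits of the arrays and p = 0.111 over the 18 splits within scan batch, where the smallest possible values are 0.0286 and 0.0556. Both sets have names ending in a_at, which marks sets read by several transcripts of the same gene, and which transcripts those are is not stated in the tables used here.

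**Figure D2:**
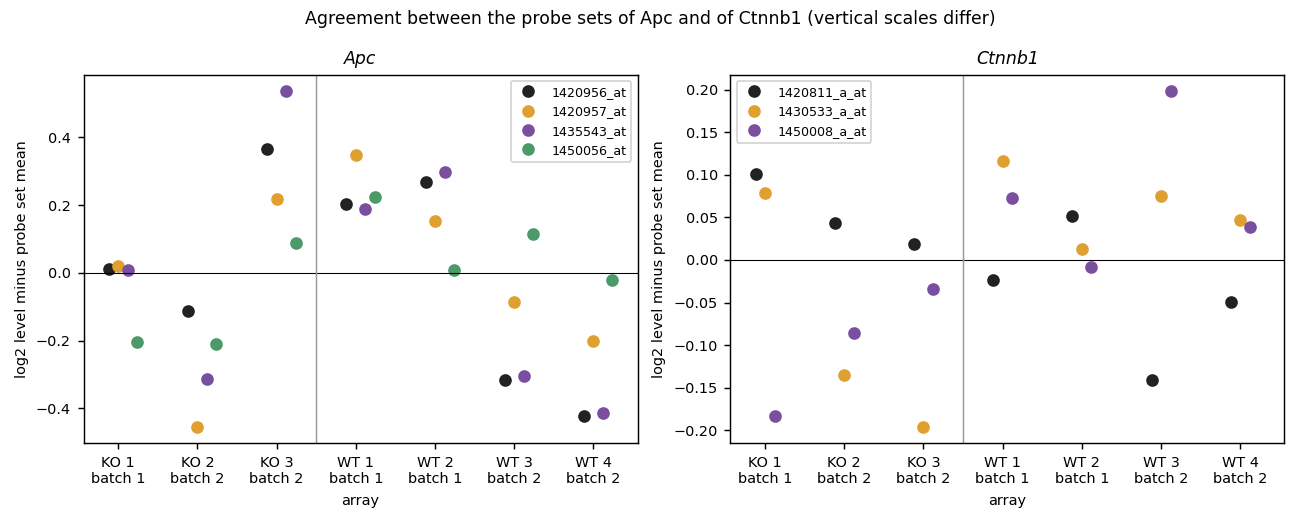
Log2 level of each probe set of Apc (left) and Ctnnb1 (right) minus that set's mean over the 7 arrays, 1 point per array and set, KO arrays left of the grey line and WT arrays right of it. For Apc, 3 of the 4 sets move together and sit high in KO replicate 3 and WT replicates 1 and 2; for Ctnnb1, 1420811_PM_a_at and 1450008_PM_a_at mirror each other (r = -0.948).

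Lef1 showed the widest difference of all 25 probe sets. It encodes a TCF/LEF factor that is itself a target of Wnt signalling and binds beta-catenin. Its log2 level was 9.09, 8.91 and 8.82 in KO replicates 1 to 3, against 9.57, 9.18, 9.39 and 9.14 in WT replicates 1 to 4. Every KO array lay below every WT array, though the nearest pair, KO replicate 1 and WT replicate 4, was close. The means were 8.94 ± 0.14 in KO (SD, n = 3) and 9.32 ± 0.20 in WT (SD, n = 4). The difference in the fit was -0.35 (SE 0.12, 95% interval -0.62 to -0.083), or 1.28-fold lower in KO, and did not pass over all probe sets (limma, adjusted p = 0.50). It was negative within both scan batches, at -0.28 in batch 1 and -0.40 in batch 2, and lay between -0.43 and -0.28 when any 1 array was left out. Because T cells also express Lef1 strongly, the lymphocyte markers belong beside it: of 16, 4 lay among the 25% of genes of lowest mean level, and 9 were higher and 7 lower in KO. Among them Cd3e, of the T cell receptor complex, read 4.92, 4.80 and 5.33 in KO and 4.73, 4.90, 4.92 and 4.88 in WT. Zap70, a kinase of T cell receptor signalling, went the way of Lef1, at 6.29, 6.32 and 5.98 in KO and 6.75, 6.35, 6.54 and 6.41 in WT, with every KO array below every WT array. It differed by -0.30 (limma adjusted p = 0.529). Other markers went the other way, among them Cd247 by 0.18 (limma adjusted p = 0.663). So did Thy1, which also stands in the fibroblast and muscle list, by 0.17 (limma adjusted p = 0.524). At an unadjusted p under 0.05 in limma, 1 of the markers was higher and 1 lower in KO. Of 12 fibroblast and muscle markers, 5 were higher and 7 lower in KO, and of 10 of endothelium and glia, 2 and 8. These included Vim, at 11.2, 11.1 and 11.24 in KO and 11.62, 11.62, 11.38 and 11.37 in WT (difference -0.29, limma adjusted p = 0.457). Cdh5 read 6.05, 6.17 and 6.11 in KO and 6.42, 6.48, 6.73 and 6.38 in WT (difference -0.41, limma adjusted p = 0.458). The part of any of these cells in the Lef1 values was not tested.

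Tcf7l2 encodes the main TCF factor of the intestinal epithelium, and its probe sets also differed among themselves. The brightest, 1426639_PM_a_at, read 10.438, 10.285 and 10.392 in KO against 10.558, 10.433, 10.866 and 10.569 in WT. KO was lower apart from WT replicate 2, which lay just under KO replicate 1, with a difference of -0.25 (SE 0.10, 95% interval -0.49 to -0.013; limma adjusted p = 0.523). Leaving out WT replicate 3 gave -0.14, and leaving out KO replicate 1 gave -0.38, which is also the value within scan batch 2. Set 1429428_PM_at was steady, between 10.06 and 10.21 in KO and between 10.09 and 10.15 in WT, with a difference of 0.034 (SE 0.063). On 1425229_PM_a_at the KO arrays all read 6.75 and the WT arrays 7.01, 6.70, 6.92 and 6.61, so that KO lay in the middle of WT. The set 1429427_PM_s_at stood at 4.43, 4.80 and 4.51 in KO and 4.43, 4.57, 4.33 and 4.28 in WT. It was the only one of the 25 below the mean level of 4.87 that cuts off the lowest 25% of probe sets, and its ending s_at marks probes that may read more than 1 gene.

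Tcf7l1, known mainly as a repressor of Wnt targets in the absence of beta-catenin, did not separate KO from WT. On its brighter set, 1436207_PM_at, KO arrays read 7.52, 7.44 and 7.36 and WT arrays 7.40, 7.03, 7.91 and 7.48. The WT arrays spanned the whole range, and the difference of -0.056 (SE 0.17) was 0.31 within scan batch 1 and -0.30 within scan batch 2. On 1450117_PM_at, WT replicate 3 again stood highest at 5.83, with the other WT arrays between 5.52 and 5.53 and KO between 5.39 and 5.64, a difference of -0.13 (SE 0.095) that was -0.041 without WT replicate 3, -0.054 without KO replicate 2 and -0.19 without WT replicate 4.

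**Figure D3:**
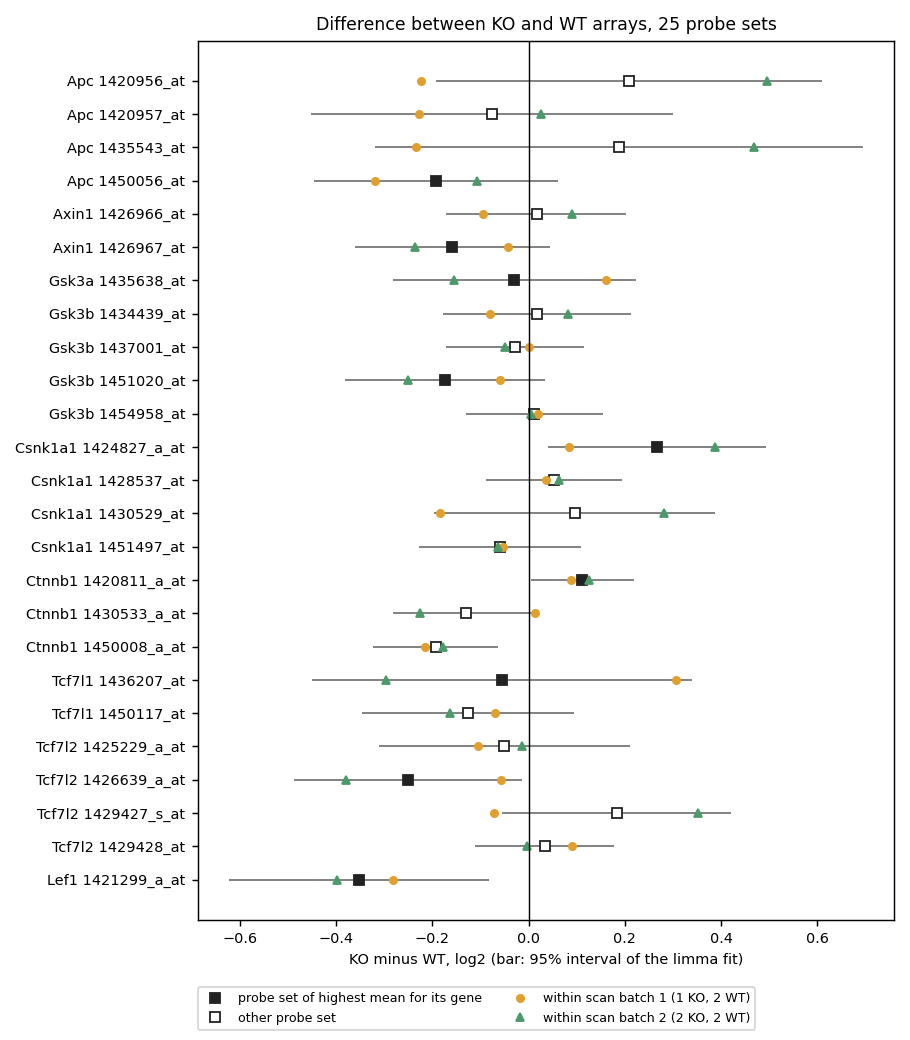
KO minus WT difference in log2 level for the 25 probe sets (squares, filled for the brightest set of a gene), with the 95% interval of the limma fit as a bar, and the same difference within scan batch 1 (circles) and within scan batch 2 (triangles). Lef1 lies farthest from 0 at -0.35; the batches lie on opposite sides of 0 for 12 of the 25 sets.

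Across these genes, probe sets of one gene often failed to move together. Of 29 pairs of sets for the same gene, 16 had a positive r across the 7 arrays and 13 a negative one, with a median of 0.095, and 11 pairs had differences of the same sign. Apc had a positive r in all 6 of its pairs, though only 2 of them had differences of the same sign, and the single pair of Tcf7l1 had r = 0.572. WT replicate 3 was the highest or the lowest of the 7 arrays on 11 of the 25 sets (44.0%), against 29.3% of all probe sets. The 3' control set of Gapdh minus the 5' one on the log2 scale, a measure of where along the RNA the signal lies, was -0.154, -0.213 and -0.239 in KO and -0.131, -0.209, -0.121 and -0.121 in WT, so that KO and WT replicate 2 lay lower than the other WT arrays. The same measure for actin did not group that way, at -0.30, -0.51 and -0.45 in KO and -0.49, -0.43, -0.50 and -0.45 in WT, with KO replicate 1 highest. With the Gapdh measure as a further covariate, added after the values were seen, the difference was -0.22 for Lef1, -0.19 for Ctnnb1 1450008_PM_a_at, 0.084 for Ctnnb1 1420811_PM_a_at, 0.12 for Csnk1a1 1424827_PM_a_at and -0.13 for Tcf7l2 1426639_PM_a_at. In that fit 1 of the 25 probe sets had an unadjusted p under 0.05 in limma, beside 3383 of all 45037.

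RefSeq's windows around gene starts (250 bases before to 50 after, build GRCm38.p6) were searched on both strands for CTTTGA, whose reverse complement is TCAAAG. This is 1 form of the sequence that TCF/LEF proteins bind, and other forms were not searched. The window table matched 7 of the 10 genes, Tcf7 among them, with 13 windows. The motif lay in 3 of these windows (23.1%), 1 each for Lef1, Gsk3a and Gsk3b, and in 16.0% of all 32851 windows. For Lef1 it lay at 2 places before the start farthest downstream of its 4. The stretches around the matches, all upstream of the start, are shown 5′ to 3′ on the gene's strand with the matches in capitals. They hold every match to CTTTGA or TCAAAG in the windows of these genes. A match in letters is a description and not evidence of binding. Lef1 is at chr3:131156087-131156206 on the plus strand, Gsk3a at chr7:25237976-25238035 on the minus strand and Gsk3b at chr16:38088897-38088956 on the plus strand.
Lef1: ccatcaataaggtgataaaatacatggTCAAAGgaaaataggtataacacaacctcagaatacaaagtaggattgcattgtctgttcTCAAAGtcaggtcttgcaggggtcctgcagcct
Gsk3a: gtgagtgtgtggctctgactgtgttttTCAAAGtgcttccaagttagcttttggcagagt
Gsk3b: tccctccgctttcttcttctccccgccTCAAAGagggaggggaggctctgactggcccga

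Further genes of the pathway were described from 4 lists, 1 probe set per gene. In each list 0 genes passed in either direction (limma, adjusted over all probe sets). The list of Wnt target genes also holds Lef1, and it shares Axin2 and Nkd1 with the list of the destruction complex. Over all 17097 genes, 6949 were higher and 10148 lower in KO, with a median difference of -0.023. Of these genes 9.61% had an unadjusted p under 0.05 (5.78% higher and 3.83% lower in KO). Of 36 other parts and regulators of the destruction complex, 16 were higher and 20 lower in KO, with a median of -0.039, and 7 higher and 4 lower genes had an unadjusted p under 0.05 (30.6%). The 4 of smallest p each had all KO arrays above all WT arrays, beside 2.16% of all probe sets. In this list and those below the named genes were picked by small p. That choice favours arrays that do not overlap, so the separation adds no support. Siah1b differed by 0.52 (SE 0.090; limma adjusted p = 0.418) and Siah1a by 0.35 (SE 0.10; limma adjusted p = 0.486), where Siah proteins are ubiquitin ligases that can degrade beta-catenin without its phosphorylation by Gsk3. Siah1b read 6.62, 6.32 and 6.41 in KO and 6.31, 6.24, 5.81 and 5.66 in WT. Its probe set ends in s_at and Siah1a and Siah1b are near-identical genes, so the value is uncertain as to gene. Gid8, which binds beta-catenin in the nucleus, differed by 0.39 (SE 0.099), and Rnf146, a ligase that marks Axin for destruction, by 0.27 (SE 0.086).

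Of 28 nuclear partners of beta-catenin and TCF, 16 were higher and 12 lower, with a median of 0.029, and 14.3% had an unadjusted p under 0.05. Parp1, a DNA repair enzyme that also binds the beta-catenin and TCF complex, read 9.08, 9.12 and 9.13 in KO and 9.52, 9.33, 9.55 and 9.44 in WT. Its difference was -0.36 (SE 0.080; limma adjusted p = 0.458), with no overlap. Ldb1, an adaptor of Wnt-responsive enhancers, differed by -0.22 (SE 0.081), also without overlap. Nlk, a kinase that phosphorylates TCF/LEF proteins, differed by 0.25 (SE 0.089) and Tbl1xr1, a co-repressor subunit that beta-catenin recruits, by 0.33 (SE 0.13), both with overlap.

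Of 10 genes that hold beta-catenin at the membrane, 3 were higher and 7 lower, with a median of -0.026 and 0 at an unadjusted p under 0.05. Cdh1, the epithelial cadherin, differed by 0.11 (SE 0.067), Ctnna1, which joins the cadherin complex to actin, by 0.27 (SE 0.16), Plekha7 by -0.25 (SE 0.12) and Vcl, an actin linker, by -0.16 (SE 0.10). Of 34 Wnt target genes 11 were higher and 23 lower in KO, with a median of -0.066, beside 10148 lower of all 17097 genes. In the list 3 higher and 1 lower gene had an unadjusted p under 0.05 (11.8%). The lower one was Lef1. The higher ones were Dkk2, a secreted Wnt modulator, with a difference of 0.46 (SE 0.12; limma adjusted p = 0.483), Rgmb, a BMP co-receptor, with 0.25 (SE 0.090), and Mmp7, the secreted protease matrilysin, with 0.21 (SE 0.090), all without overlap between KO and WT. Dkk2 read 9.24, 8.89 and 8.92 in KO and 8.65, 8.79, 8.28 and 8.71 in WT. The mean log2 level of the target list was 9.39 to 9.44 in KO and 9.40 to 9.49 in WT, so the groups overlapped.

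**Figure D4:**
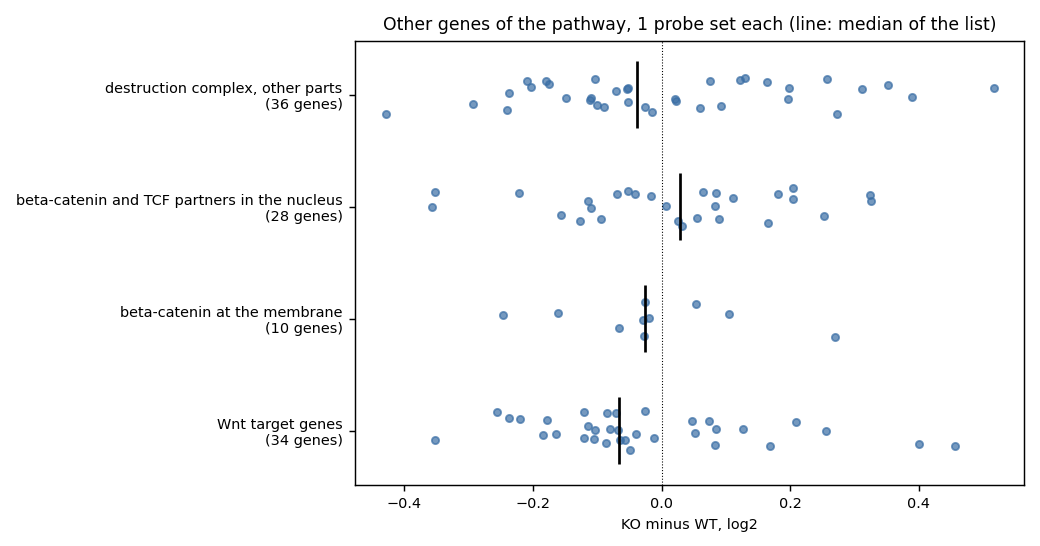
KO minus WT difference in log2 level for the genes of 4 lists of the Wnt pathway, 1 point per gene on its brightest probe set, with the list's median as a line. The medians lie between -0.066 and 0.029, and 0 genes passed the threshold.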

How the data were processed

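The values are log2 levels per probe set that the authors deposited after RMA, per the submitters' processing notes; the RMA version and any filter or correction for batch are not stated in the labels used here. Scanner files were not analysed here. Of 45141 probe sets, 104 controls were set aside. Of the other 45037, 28898 had 1 gene symbol in the platform annotation, 551 several and 15588 none.

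KO was compared with WT on all 7 arrays with limma 3.58.1 in R 4.3.3. The linear model held genotype and scan batch, eBayes used a mean-level trend, tests were two-sided, and p-values were adjusted after Benjamini and Hochberg over all 45037 probe sets, with a threshold of 0.05. No level filter was set, since every probe set is described; 4 residual degrees of freedom remained, and the median SE was 0.082. The number of arrays limits the precision. In 19944 probe sets at least 2 arrays carried the same value.

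The genes, lists, likeness rule and tests were chosen with earlier results of these data known. Named genes are the members, Mex3a, the 4 genes of smallest p in each list and the 3 of highest r with Apc and Ctnnb1. For lists and likeness the probe set of highest mean stood for a gene, and likeness was taken among genes above the lowest 25% by mean level. Siah1b and the other list genes fall under that rule. Epcam, Lyz2, Ptprc, Jchain, Cd3e, Zap70, Thy1, Cd247, Vim and Cdh5 were named after their values were seen. Lists of colon epithelium, fibroblasts and muscle, and endothelium and glia had medians of KO minus WT of -0.0098, -0.038 and -0.056, T and innate lymphoid cells 0.0071 and other leukocytes -0.029, each with 0 genes called.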

Additional observations from a re-analysis of the deposited data

Results flagged for a closer look

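Each value here is 1 WT array that stood apart from the other 3, by a gap above the 95% critical value of Dixon's test; chance flags about 1 in 20 groups, and 4 of 52 were flagged. Tcf7l1 1450117_PM_at stood at 5.83 in WT replicate 3 and at 5.52 to 5.53 in the others. Tcf7l2 1429428_PM_at stood at 10.15 in WT replicate 2 and at 10.09 to 10.10 in the others. The mean of the list for beta-catenin at the membrane was 8.29 in WT replicate 4 and 8.37 to 8.39 in the others. The mean of the fibroblast and muscle markers was 6.75 in WT replicate 3 and 6.33 to 6.385 in the others; in KO it was 6.27 to 6.77.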

How the results depend on the processing

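Under 18 alternatives 0 of the 25 probe sets were called (lowest adjusted p 0.0539), and over all probe sets 0 were called except without WT replicate 4, where 1 was (Slc15a2), so leaving out 1 array gave 0 to 1. That lowest limma adjusted p was of Csnk1a1 1424827_PM_a_at with array weights. In the same fit it was 0.0548 for Ctnnb1 1450008_PM_a_at, 0.0555 for Tcf7l2 1426639_PM_a_at and 0.0595 for Lef1. The smallest over all probe sets there was 0.0521. KO replicate 1 had a weight of 0.32 and KO replicate 2 of 2.9. Of 417 differences, 379 kept their direction and 38 turned, on 15 probe sets. The other 10, among them Lef1 and Ctnnb1 1450008_PM_a_at, kept it in every alternative run. Fits without the trend, with robust eBayes or with fewer probe sets give the same difference as the main fit. Their values are among the 379 and could not turn. Without KO replicate 1 each difference equals that within scan batch 2, so the same value is counted again. Within scan batch 1, with its 1 KO array assumed to vary like the others, the turned values were -0.22 (Apc 1420956_PM_at), -0.235 (Apc 1435543_PM_at), -0.095 (Axin1 1426966_PM_at), 0.16 (Gsk3a), -0.080 (Gsk3b 1434439_PM_at), 0.00092 (Gsk3b 1437001_PM_at), -0.185 (Csnk1a1 1430529_PM_at), 0.014 (Ctnnb1 1430533_PM_a_at), 0.31 (Tcf7l1 1436207_PM_at) and -0.072 (Tcf7l2 1429427_PM_s_at). Within scan batch 2 they were 0.025 (Apc 1420957_PM_at) and -0.0042 (Tcf7l2 1429428_PM_at). With the Gapdh covariate, added after seeing the data, they were -0.057 and -0.112 for Apc 1420956_PM_at and 1435543_PM_at, -0.045 for Axin1 1426966_PM_at, 0.115 for Gsk3a, 0.0057 for Gsk3b 1437001_PM_at, -0.012 for Csnk1a1 1430529_PM_at and 0.216 for Tcf7l1 1436207_PM_at. With the mean of all sets of a gene Apc was at 0.031 and Ctnnb1 at -0.071. With 1 array left out, differences that turned ranged from -0.27 to 0.066 (Apc 1420957_PM_at), -0.095 to 0.47 (Apc 1435543_PM_at), -0.016 to 0.090 (Axin1 1426966_PM_at), -0.16 to 0.037 (Gsk3a), -0.030 to 0.082 (Gsk3b 1434439_PM_at), -0.0073 to 0.28 (Csnk1a1 1430529_PM_at), -0.30 to 0.11 (Tcf7l1 1436207_PM_at), -0.14 to 0.019 (Tcf7l2 1425229_PM_a_at) and -0.0042 to 0.056 (Tcf7l2 1429428_PM_at). The cause of these turns was not tested. The number at an unadjusted p under 0.05 over all probe sets was 4231, and ran from 2273 without KO replicate 3 to 10866 with array weights among fits of all probe sets. No paired analysis was possible because the labels give the groups no shared replicate numbers.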
